A study of Bos taurus with 4 samples.

Results

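The annexins are a family of cytosolic proteins that bind membranes rich in acidic phospholipids when calcium rises. Each has a conserved core of repeats that holds the calcium and faces the membrane, and a variable N-terminal tail that binds partners such as the small S100 proteins. They are known for roles in membrane traffic, membrane repair and the link between membranes and actin, and several reach the cell surface. In the placental trophoblast, ANXA5 is known as a shield of the surface against coagulation.

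Members were taken as every probe whose platform gene symbol is ANXA1, ANXA2, ANXA3, ANXA4, ANXA5, ANXA6, ANXA7, ANXA8 or ANXA11, which gave 17 of the 43794 probes on the array and 9 of its 15216 named genes. The platform also names ANXA9, ANXA10 and ANXA13. Their 4 probes were above background in 0 of 8 samples, and they are not members. RefSeq now lists the gene of the ANXA8 symbol as ANXA8L1, and the platform's name is kept here. Of the 17 probes, 14 passed the filter on dim signal, with at least 1 probe for each of the 9 genes, and 11 were above background in all 8 samples. The set was chosen on signal and on ratios of 8 over 14 months of these same arrays, so those ratios are described below and not tested. Probe sequences were not used here, so signal that 1 annexin's probe takes from another annexin's transcript was not assessed.

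The material was early blastocysts of Holstein cattle, made in vitro and taken 168 h after fertilization. At this stage an outer trophectoderm encloses a fluid cavity and a small inner cell mass. The oocytes came from 4 heifers (n = 4) after FSH stimulation and progesterone, once at 8 and once at 14 months of age, and 1 bull's semen was used throughout. Embryos of each heifer and age were pooled, and both pools of a heifer were hybridised on 1 array with 2 dyes. The 8-month pool was in Cy5 for heifers 1 and 2 and in Cy3 for heifers 3 and 4. The dye therefore cannot be told apart from the pair of heifers, nor donor age from the order of the collections. In pooled whole embryos, fewer cells of a type and less RNA per cell cannot be told apart.

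Above background were 43.3% to 51.1% of all probes in the Cy3 samples and 26.9% to 41% in the Cy5 samples. The keratins KRT8 and KRT18 and the trophoblast regulators GATA3 and TFAP2C were above background in 8 of 8 samples, as was the pluripotency factor POU5F1. CDX2 was above background in 5 samples and SOX2 in 7. Of 8 markers of cumulus and granulosa cells, which surround the oocyte, FSHR, FOXL2, AMH and TNFAIP6 were above background in 0 of 8 samples, PTX3 in 1 and HAS2 in 2. The 2 that could be measured, CYP19A1 and INHBA, were above background in 6 and 8 of 8 samples. Their summed level was 379 to 616 on the linear scale at 8 months and 415 to 806 at 14 months. Of 5 blood cell markers PTPRC and HBA were above background in 8 of 8 samples, CD3E in 6, CD68 in 3 and HBB in 0. The 3 measured, PTPRC, HBA and CD3E, summed to 1369 to 2868 at 8 months and 1140 to 2432 at 14 months. For both lists the ranges of the 2 ages overlapped.

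ANXA2 had the most negative fitted ratio of the 9 genes. ANXA2 forms a complex with S100A10, binds actin and membranes, and at the cell surface holds plasminogen and its activators. Its probe (EMBV3_00649) had log2 levels of 13.67, 13.71, 13.36 and 13.62 at 8 months in heifers 1 to 4. At 14 months the levels were 14.08, 14.10, 14.41 and 14.02. Every 8-month sample lay below every 14-month sample, so the ages did not overlap. The foreground signal was 12202 to 20911 on the scanner's linear scale in all 8 samples, with 0 saturated. The log2 ratio of 8 over 14 months was -0.42, -0.38, -1.05 and -0.40 in heifers 1 to 4. Heifer 3 had the most negative ratio and the other 3 heifers lay close together. The fitted ratio was -0.56 ± 0.12 (SE, n = 4), or 1.48-fold lower at 8 months, with an SD of 0.326 over the heifers. Without heifer 3 it was -0.40.

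ANXA2 was the only annexin gene whose levels did not overlap between the ages, where 4.76% of all 8398 genes had this property. It was also the 1 of 9 annexin genes called in the age fit over all genes (limma, adjusted p under 0.05), where 4.5% of all genes were called, 2.8% as lower at 8 months. In the fit over all probes, 0 of 14 annexin probes were called against 1.88% of all tested probes. By the looser criterion of an unadjusted p under 0.05, 2 of 9 annexin genes passed, where 27.3% of all genes did. Because the members were chosen with these ratios known, nothing is read from these counts. The call of ANXA2 was lost without heifer 1, 2 or 3, without background correction and without the dye term. It was also lost when mean pixel values were used for each spot, and when a gene's probes were averaged. ANXA2 has 1 probe, so averaging left its ratio at -0.56 and changed only the fit over all genes. Its ratio was negative in all 13 alternatives, from -0.97 to -0.40. Several of these could not turn the sign, because they left the ratio unchanged or left out 1 heifer while all 4 were negative.

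**Figure D1:**
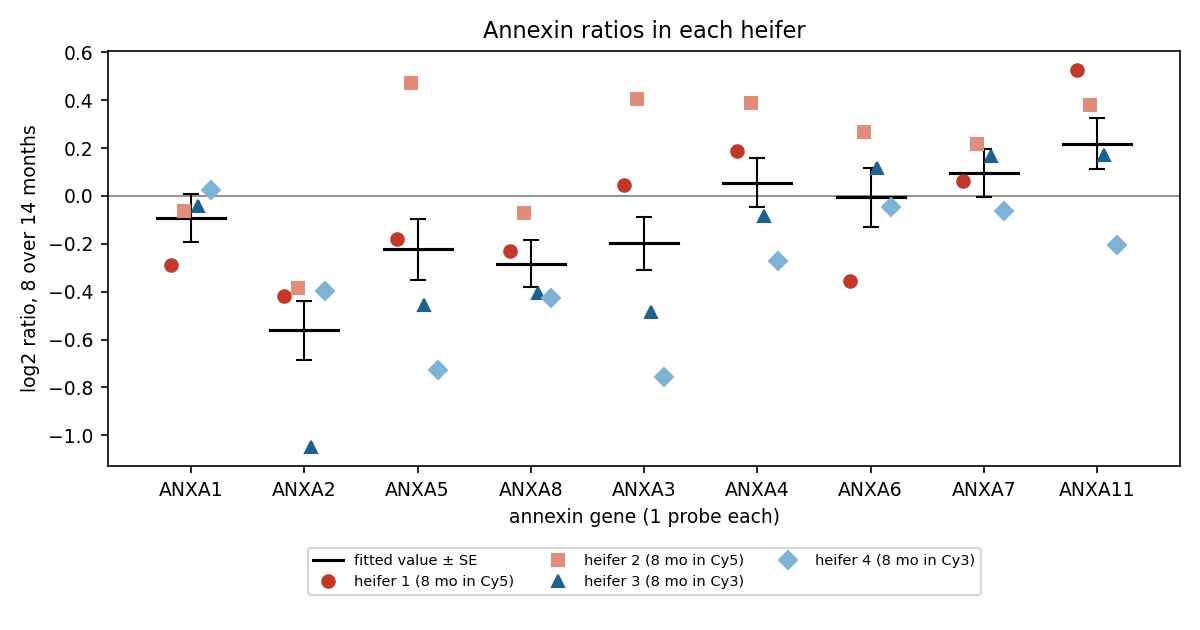
Log2 ratio of 8 over 14 months (vertical axis) of the 9 annexin genes, 1 probe each. Symbols are the 4 heifers, red for an 8-month pool labelled with Cy5 and blue for one labelled with Cy3, and black lines are the fitted value ± SE. ANXA2 and ANXA8 lie below 0 in all 4 heifers, and both red symbols lie above both blue ones in ANXA3, ANXA4, ANXA5, ANXA8 and ANXA11.

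ANXA8 and ANXA1 are, with ANXA5, the other members with known extracellular or surface roles. ANXA8, first described as an anticoagulant protein and also found on late endosomes, was lower at 8 months in each heifer (EMBV3_21459, log2 ratios -0.23, -0.071, -0.41 and -0.42). Its levels were 12.48, 12.68, 12.94 and 11.95 at 8 months and 12.71, 12.75, 13.35 and 12.38 at 14 months, in heifers 1 to 4. The levels of the 2 ages overlapped, because heifer 3 was high and heifer 4 low at both ages. The fitted ratio was -0.28 ± 0.10 and was negative in all 13 alternatives, several of which could not turn its sign, as for ANXA2.

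ANXA1, a mediator regulated by glucocorticoids that acts on formyl peptide receptors, had levels of 12.19, 11.68, 11.72 and 11.29 at 8 months (EMBV3_13791). At 14 months they were 12.48, 11.74, 11.77 and 11.26. The heifers had the same order at both ages, with heifer 1 high and heifer 4 low, and the ages overlapped. The ratios were -0.29, -0.065, -0.044 and 0.024, and the fitted value was -0.093 ± 0.10, smaller than the SD of 0.135 over the heifers.

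ANXA5 binds phosphatidylserine and is widely used to stain dying cells. It had 3 probes, each above background in all 8 samples. The brightest (EMBV3_28897) had levels of 11.52, 12.18, 11.07 and 12.25 at 8 months and 11.70, 11.71, 11.52 and 12.98 at 14 months. Its ratios were -0.18, 0.47, -0.46 and -0.73, so heifer 2 went against the other 3. The fitted ratio was -0.22 ± 0.13, with an SD of 0.513 over the heifers. The second probe (EMBV3_30450) had 0.24, 0.35, -0.17 and -0.15, and the third (EMBV3_41725) had 0.090, -0.00054, -0.24 and -0.22. All 3 probes had higher ratios in heifers 1 and 2 than in heifers 3 and 4 on average, by 0.74, 0.46 and 0.27. Their fitted values of -0.22, 0.069 and -0.093 did not share a sign, so the probes give no common direction with age.

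**Figure D2:**
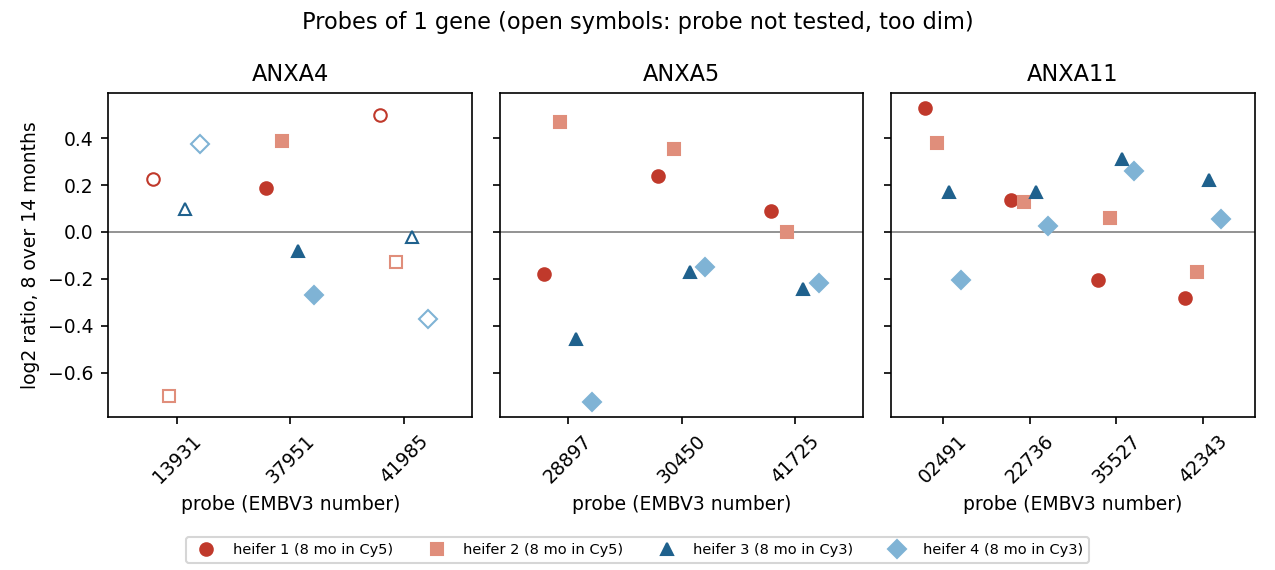
Log2 ratio of 8 over 14 months (vertical axis) for each probe of ANXA4, ANXA5 and ANXA11, with 1 symbol per heifer. In ANXA5 heifers 3 and 4 lie below 0 at all 3 probes. In ANXA11 the brightest probe (EMBV3_02491) is highest in heifers 1 and 2, and the dim probes EMBV3_35527 and EMBV3_42343 are highest in heifers 3 and 4.

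ANXA3 and ANXA4 are short-tailed annexins. ANXA3 is known in human neutrophils for bringing granules together. Its probe EMBV3_26384 had levels of 11.14, 10.00, 9.59 and 7.73 at 8 months and 11.09, 9.60, 10.07 and 8.49 at 14 months. Heifer 1 was highest and heifer 4 lowest at both ages. The ratios were 0.046, 0.41, -0.49 and -0.76, positive in heifers 1 and 2 and negative in heifers 3 and 4, and the fitted value of -0.20 ± 0.11 was smaller than the SD of 0.522. The other ANXA3 probe (EMBV3_12272) was above background in 1 of 8 samples and was not tested.

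ANXA4, an annexin of epithelia, was measured by EMBV3_37951, with ratios of 0.19, 0.39, -0.082 and -0.27 and a fitted value of 0.056 ± 0.10. The sign split the heifers in the same way as for ANXA3. Its signal was low, at 182 to 465 on the linear scale, and above background in 8 of 8 samples. The ANXA4 probe EMBV3_13931 was above background in 4 of 8 samples, and EMBV3_41985 in 0 of 8. Neither was tested, and the ratios of these dim probes have no certain size.

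ANXA6, ANXA7 and ANXA11 differ most from the basic plan: ANXA6 has a duplicated core, and ANXA7 and ANXA11 have long N-terminal tails. ANXA6, linked to endosomes and cholesterol traffic, had ratios of -0.35, 0.27, 0.12 and -0.048 (EMBV3_27007). The fitted value was -0.0048 ± 0.12, with an SD of 0.266, so no direction is given. ANXA7, or synexin, was named for the fusion of chromaffin granules of the bovine adrenal. It had ratios of 0.061, 0.22, 0.17 and -0.062 (EMBV3_40097) and a fitted value of 0.096 ± 0.10, within the SD of 0.124.

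ANXA11 acts at the midbody in cell division and tethers RNA granules to lysosomes. Its brightest probe (EMBV3_02491) had levels of 12.36, 12.35, 12.15 and 12.40 at 8 months and 11.83, 11.97, 11.98 and 12.60 at 14 months. The 8-month embryos were higher in heifers 1, 2 and 3, with ratios of 0.53, 0.38 and 0.17, and lower in heifer 4, with -0.21. The fitted ratio was 0.22 ± 0.11, the highest of the 9 genes, and was -0.13 under median centring, which moved the median of all genes from -0.0035 to -0.18. The other 3 ANXA11 probes were dim, at 107 to 484 on the linear scale, and were above background in 7 of 8 samples each. EMBV3_22736 was positive in all 4 heifers, from 0.027 to 0.17, with a fitted value of 0.12. EMBV3_35527 and EMBV3_42343 had fitted values of 0.11 and -0.043. The pairs of heifers differed in opposite directions: heifers 1 and 2 exceeded heifers 3 and 4 by 0.47 at the brightest probe and were below them by -0.36 at each of these last 2.

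Over the 9 genes, the fitted ratio was negative for 6 and positive for 3, and under median centring it was negative for ANXA4, ANXA7 and ANXA11 too. The median was -0.093 against -0.0035 over all genes, and the median size was 0.198 against 0.156. Only ANXA2 and ANXA8 had the same sign in all 4 heifers, 2 of 9, where 27.6% of all genes did. By heifer, 4, 6, 3 and 1 of the 9 ratios were above 0 in heifers 1 to 4. Of all genes, 49.9%, 48.1%, 48.2% and 48.9% were above 0 in these heifers. The signs were thus mixed over genes and heifers. Heifer 4 had the most negative family median, at -0.27 against -0.0096 for all genes in that heifer.

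The dye orientation term of the same fit compares heifers 1 and 2 with heifers 3 and 4. Over all genes, the ratios correlated more within these pairs (r = 0.60 and 0.37) than between them (r = -0.046 to 0.18). A split by pair is thus not particular to the annexins. The dye orientation term is orthogonal to the age term, and was tested over all genes with limma. Of the 9 annexin genes 0 were called, where 0.0834% of all genes were. An unadjusted p under 0.05 was found for 3, ANXA3, ANXA4 and ANXA5, against 1599 of all 8398 genes. The largest term was that of ANXA3 (0.42 ± 0.11, adjusted p = 0.112), followed by ANXA5 (0.37 ± 0.13, adjusted p = 0.185) and ANXA11 (0.24 ± 0.11, adjusted p = 0.282). The mean ratio of ANXA3 was 0.23 in heifers 1 and 2 and -0.62 in heifers 3 and 4. For ANXA5 these means were 0.15 and -0.59. Under median centring the term was called for ANXA3 (0.49, adjusted p = 0.0415) and ANXA5 (0.57, adjusted p = 0.0294). In that setting 423 of all 8398 genes were called, 372 of them with a positive term. Whether ANXA3 and ANXA5 differ between the pairs thus depended on the normalization.

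The level of each annexin in a heifer, averaged over both ages, is a measure separate from the ratio. The feature described here was picked out after its values were seen, and an array and a heifer cannot be told apart in it. ANXA3 had mean log2 levels of 11.11, 9.80, 9.83 and 8.11 in heifers 1 to 4, a range of 3.01 or 8.04-fold. Only 4 of the 8398 genes had a wider range, and the median range of all genes was 0.469. The gap between heifers far exceeded the greatest difference between the ages within a heifer, which was 0.755 on the log2 scale.

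The raw signal of ANXA3 also differed between heifers before any normalization. It was 2188 at 8 months and 2285 at 14 months in heifer 1, and 363 and 309 in heifer 4. In heifer 4 these were just above the background thresholds of 334.3 in Cy3 and 231.6 in Cy5. The range was 3.08 without scaling between arrays and 3.00 with quantile scaling, both settings chosen after the data were seen. The measured markers of other cells did not share 1 order. Among blood cell genes HBA was, like ANXA3, highest in heifer 1 (9.68), though lowest in heifer 3 (8.96). PTPRC was highest in heifer 3 (10.94) and CD3E in heifer 2 (7.60), while INHBA (8.91) and CYP19A1 (7.80) of the granulosa list were highest in heifer 4. Their part in the ANXA3 pattern was not tested.

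Among the other members, ANXA5 had a range of 1.32 with its highest level in heifer 4, ANXA1 of 1.06 with its highest in heifer 1, and ANXA8 of 0.984 with its highest in heifer 3. Each of these 3 was highest in a different heifer. ANXA2 was at the other end, with levels of 13.88, 13.90, 13.88 and 13.82 in heifers 1 to 4. Its range of 0.086 was narrower than that of 98.9% of genes, though it was 0.232 without scaling between arrays. In all, 6 of 9 annexins had a wider range than the median gene. The widest spread between heifers and the clearest gap between ages fell on different annexins. These properties are not independent, since a wide spread between heifers makes the levels of the ages overlap more readily.

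**Figure D3:**
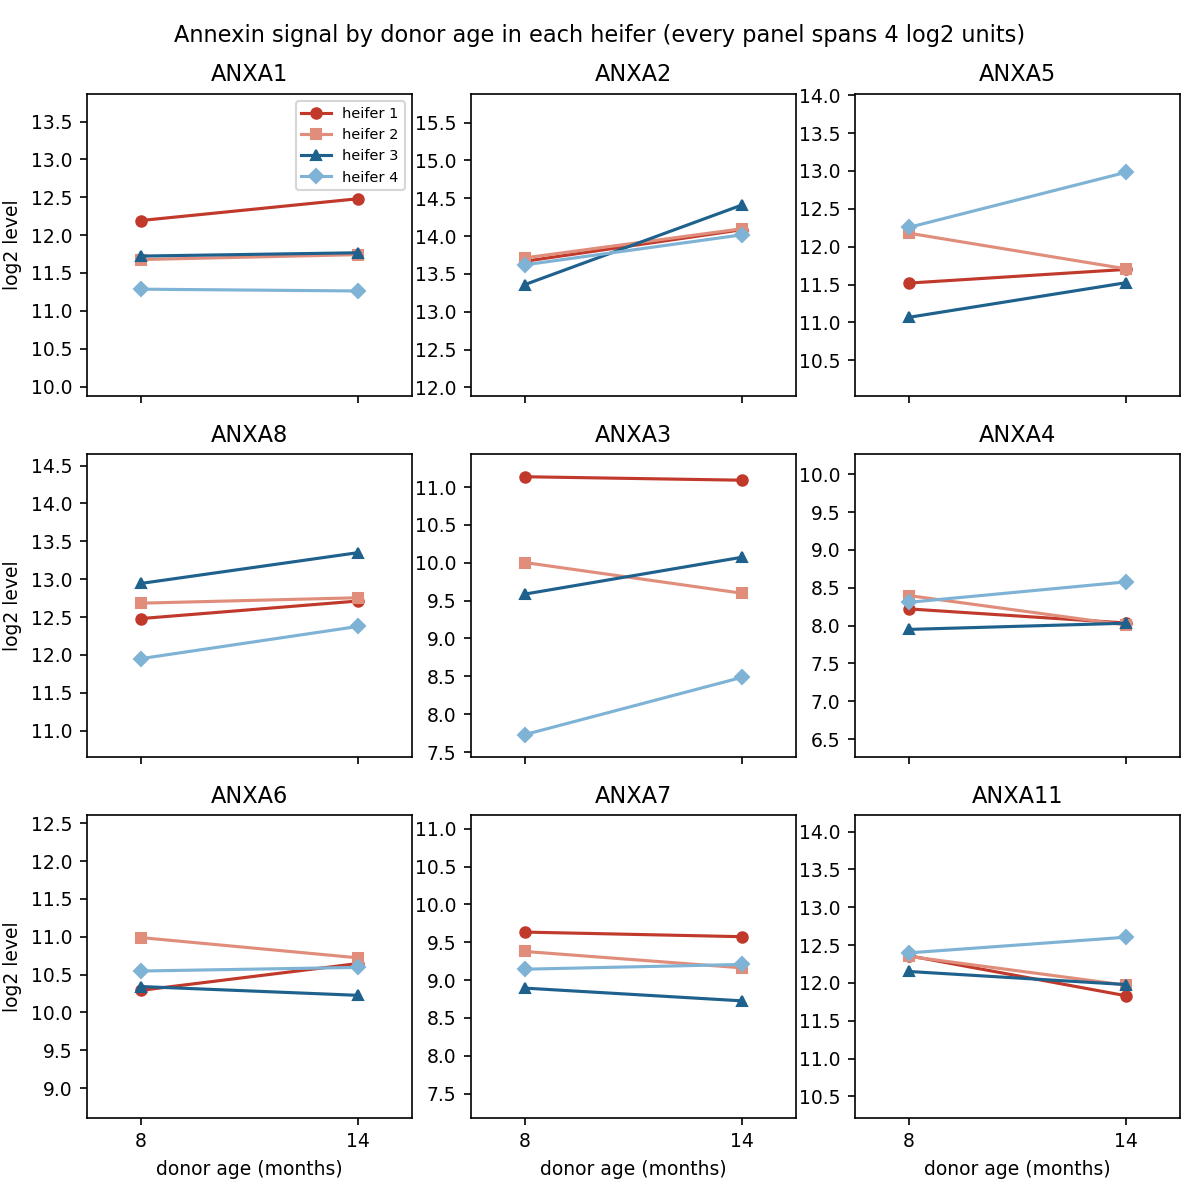
Normalized log2 level (vertical axis, every panel spanning 4 units) against donor age in months for the 9 annexin genes, with 1 line per heifer joining the samples of 1 array. In ANXA2 all 4 lines slope upward from 8 to 14 months, and in ANXA3 the lines of heifers 1 and 4 lie far apart at both ages.

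**Figure D4:**
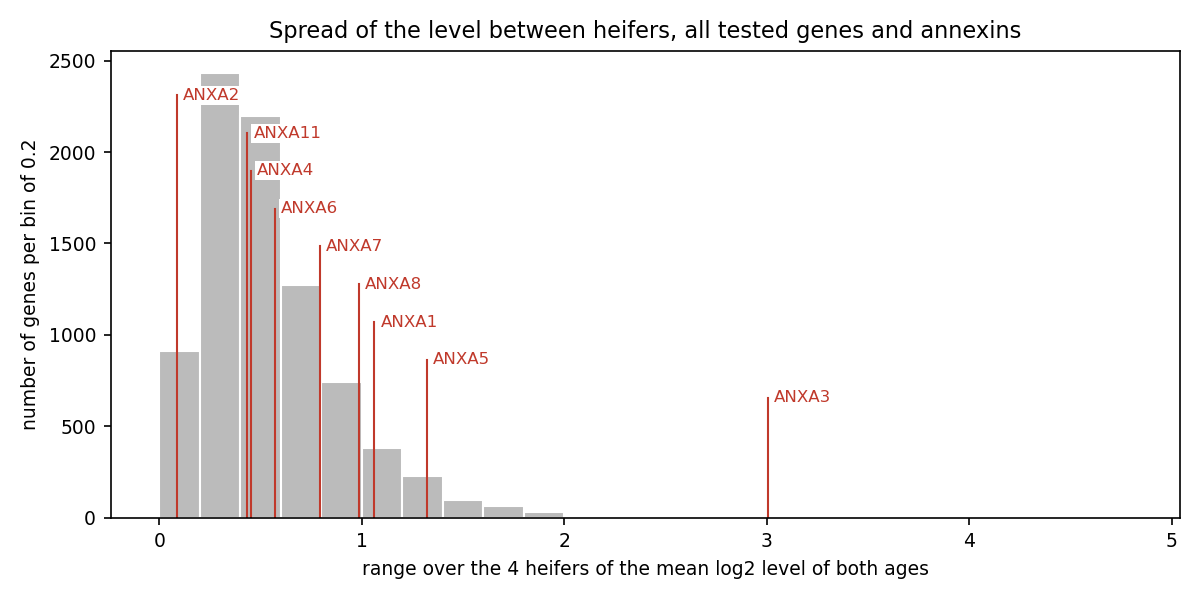
Number of genes (vertical axis) by the range over 4 heifers of the mean log2 level of both ages (horizontal axis), for 8398 genes in grey, with the 9 annexins as red lines whose heights carry no value. ANXA2 lies at 0.086 and ANXA3 at 3.01, against a median of 0.469.

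Genes that work with annexins were followed in lists that do not contain members, and 4.5% of all genes were called in this age fit, while 27.3% had an unadjusted p under 0.05. Of 8 direct partners 6 were measured and 0 passed, with 0 at an unadjusted p under 0.05 and a median ratio of 0.014. S100A10, the partner of ANXA2, named for that role after its values were seen, had ratios of 0.16, 0.52, -0.13 and -0.34 and a fitted value of 0.054 ± 0.11 (adjusted p = 0.772). In heifers 1 and 2 the ratio of S100A10 was positive and that of ANXA2 negative. S100A11, the partner of ANXA1, had -0.57, 0.41, -0.31 and -1.33, with a fitted -0.45 ± 0.20 (adjusted p = 0.185). PDCD6, a calcium sensor that binds ANXA7 and ANXA11, had -0.22 ± 0.12 (adjusted p = 0.256).

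Of the 6 genes of annexin receptors and the plasminogen system, the formyl peptide receptor genes had no probe under the symbols used, and PLG and PLAUR were above background in 0 of 8 samples. The urokinase gene PLAU, the 1 that was measured, had a fitted ratio of 0.050 ± 0.10 (adjusted p = 0.786). Its mean level was 11.50, 11.17, 10.82 and 9.72 in heifers 1 to 4, a range of 1.78 that 0.857% of genes reached or exceeded. Like ANXA3 it was highest in heifer 1 and lowest in heifer 4.

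Of 15 genes of plasma membrane repair 13 were measured and 0 passed, with 5 at an unadjusted p under 0.05 (27.3% of all genes) and a median ratio of 0.18. CHMP4B, an ESCRT subunit that pinches off wounded membrane, had ratios of 0.81, 0.55, 0.57 and -0.071 and a fitted 0.46 ± 0.13 (adjusted p = 0.0702). VPS4A, the ATPase that recycles ESCRT, had -0.41, -0.24, -0.20 and -0.46 and a fitted -0.33 ± 0.10 (adjusted p = 0.0936). CHMP4B and VPS4A had opposite signs. The other ESCRT and associated genes of the list were positive: TSG101 (0.32), VPS4B (0.21), CHMP3 (0.21), PDCD6IP (0.20) and CHMP2A (0.10). The remaining measured genes of the list were mixed. CAPNS1 (-0.38), CAPN2 (-0.33), MYOF (-0.13) and SMPD1 (-0.036) were negative, and CAPN1 (0.29) and CAV1 (0.18) were positive. Of 12 other proteins that bind phospholipids with calcium 5 were measured and 0 passed, with 1 at an unadjusted p under 0.05 (27.3% of all genes) and a median ratio of 0.18. The copine CPNE7 had 0.44 ± 0.14 (adjusted p = 0.0996). CPNE3, another copine, had 0.40 ± 0.24 (adjusted p = 0.316). Its ratio was 1.59 in heifer 3, and the other heifers lay between -0.25 and 0.15.

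Markers of the embryo's lineages were read in the same fit. Of 8 trophectoderm markers 2 were higher at 8 months, the regulators GATA2 (0.61 ± 0.10, adjusted p = 0.0313) and TEAD4 (0.56 ± 0.10, adjusted p = 0.0351), and 6 did not pass. Of these 6, KRT8 (-0.30 ± 0.11), GATA3 (-0.077 ± 0.10) and IFNT (-0.015 ± 0.12) had negative ratios, and CDX2, TFAP2C and KRT18 had positive ones. The median ratio of this list was 0.16, and its summed level overlapped between the ages. Of 3 inner cell mass markers 0 passed, with POU5F1 at 0.20 ± 0.11 (adjusted p = 0.285) and NANOG at 0.086 ± 0.15 (adjusted p = 0.747). Of the 2 measured cumulus markers and the 3 measured blood markers 0 passed, with INHBA at -0.25 ± 0.13 (adjusted p = 0.259) and PTPRC at 0.31 ± 0.12 (adjusted p = 0.144). CYP19A1 had -0.18 ± 0.12 (adjusted p = 0.349) and CD3E 0.062 ± 0.099 (adjusted p = 0.715). The part of cell composition in the annexin ratios was not tested.

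For the 4 annexins whose ratios ranged most widely over the heifers, the genes with the nearest ratios were found by the root mean square difference over the 4 heifers. Nearest to ANXA5 were TBC1D24 (difference 0.051) and SOD2 (0.055), and nearest to ANXA3 were MUC1 (0.071) and TIAL1 (0.086). For ANXA11 they were TMED7 (0.028) and RPS12 (0.030), and for ANXA2 KDM2A (0.11) and RSL1D1 (0.11). With 4 values for each of 8398 genes such neighbours are a description of these arrays. MUC1 had ratios of 0.14, 0.47, -0.46 and -0.67, and the signs it shares with ANXA3 follow from how it was found.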

How the data were processed

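Each array gave both dyes of 1 heifer. The scanner tables hold raw spot intensity and local background at both wavelengths, unnormalized, per the file headers. A deposited table and the series value table hold the authors' log2 ratios, whose background correction, normalization and centring are not given in the sources used here. Set against the scanner ratios, the first reads Cy5 over Cy3 (r = 0.961 to 0.997, medians 0.0036, 0.00028, 0.0014 and -0.0094), and the second has the sign turned for heifers 3 and 4 (medians 0.0036, 0.00028, -0.0014 and 0.0094). The first served as an alternative.

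Median intensities were corrected by normexp (offset 50) and normalized by loess within arrays, with 1426 control spots at weight 0 (limma 3.58.1, R 4.3.3). The filter asked for a foreground over the mean plus 2 SD of 153 negative controls, in 3 of the 4 samples of an age, and 17685 probes passed. A gene was represented by its brightest such probe (8398 genes). lmFit and eBayes estimated an age term, signed by dye, and a dye term, with 2 residual degrees of freedom and Benjamini-Hochberg adjustment at 0.05. With the dye term fitted, the SE draws on the spread within each pair of heifers. This spread is moderated by eBayes towards that of all genes, with 6.41 prior against 2 residual degrees of freedom. Log2 levels are channel values after Aquantile scaling between arrays, and levels of different probes are not compared. Precision is limited by having 4 arrays. The members and gene lists were chosen with earlier results of these data known. Named genes are all members, the 2 genes of lowest p in every list of related genes, and for 4 annexins the 2 genes with the nearest ratios. Other markers and membrane repair genes are named for their detection or to complete their list, and S100A10 for its role, after their values were seen. Alternatives changed background, normalization, filter, pixel summary, probe choice, the dye term and the heifers used. Gene symbols were updated through RefSeq synonyms, and genome positions are not given since no build is named for the probes.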

Additional observations from a re-analysis of the deposited data

Results flagged for a closer look

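The ratio of ANXA2 in heifer 3 (-1.05) lay far from those of the other 3 heifers (-0.42 to -0.38): its gap to the nearest of them was 0.951 of the whole range. It was 1 of 14 annexin probes examined, and this gap is above Dixon's limit for 4 values, which chance passes in about 1 of 20 groups. The fitted ratio was -0.56 with heifer 3 and -0.40 without it.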

How the results depend on the processing

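The fitted ratios of ANXA1, ANXA2, ANXA3, ANXA5 and ANXA8 were negative in all 13 alternatives. Alternatives that changed the filter or dropped the dye term left these ratios unchanged, so they could not turn a sign. ANXA4 kept its sign in 12, ANXA7 in 12, ANXA11 in 12 and ANXA6 in 10. Median centring, which moved the median of all genes to -0.18, gave -0.065, -0.12 and -0.13 for ANXA4, ANXA7 and ANXA11. It called 5 annexins lower at 8 months (ANXA1, ANXA2, ANXA3, ANXA5 and ANXA8) and 2 by the dye term (ANXA3 and ANXA5). The annexins called for age were 0 with no background correction, mean foreground, all detected probes averaged or no dye term, and 0 to 1 when a heifer was left out. Across all genes, 378 were called for age, 143 higher and 235 lower. Median centring gave 2078 (39 higher, 2039 lower), averaged probes 207, mean foreground 0 (2252 at an unadjusted p under 0.05) and no dye term 0 (1544), all with limma. Leaving out a heifer gave 0 to 339, with 0, 0, 2 and 339 without heifers 1, 2, 3 and 4. The dye term called 7 genes, 12 with plain subtraction or no filter, 34 among probes above background in all 8 samples, 32 with the authors' ratios, 423 under median centring, 0 without background correction, with mean foreground or averaged probes (1532, 1671 and 1548 at an unadjusted p under 0.05), and 0 to 20 when a heifer was left out. Dye terms that turned sign were those of ANXA1 (0.10) and ANXA6 (0.10) under median centring, ANXA6 with mean foreground (0.016), without heifer 1 (0.12) and without heifer 3 (0.0023), ANXA2 without heifer 3 (-0.0025), ANXA7 without heifer 4 (-0.015) and ANXA11 over averaged probes (-0.027). When a heifer was left out, the dye term of ANXA2 ran from -0.0025 to 0.32 and that of ANXA6 from -0.19 to 0.12. Where a value moved, the cause was not tested. Each ratio compares both ages of 1 heifer, so the fit is already paired, and no further block can be set. Signal over background limits the dim ANXA4 and ANXA11 probes and ANXA3 in heifer 4.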
